A study of Mus musculus with 12 samples.

Results

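The cytosolic ribosomal protein genes are described here as the rows of the deposited count table whose symbol is Rpl or Rps with a number (with an optional a or x), Rplp0 to Rplp2, or Rpsa. The rule took 76 of 24421 rows, 30 of the small (40S) and 46 of the large (60S) subunit, and used no measured value. Of these, 75 had enough counts to be tested, and Rpl26 did not. The study sequenced RNA of C57Bl/6 mouse embryos that carry a neural crest-specific alteration of Eftud2, whose GTPase drives rearrangements of the spliceosome; neural crest cells migrate and build much of the face. The 12 libraries formed 4 groups of 3. The groups were Eftud2+/- embryos at embryonic day 9.0 (E9.0), Eftud2-/- embryos at E9.0, Eftud2+/- embryos at E9.5 and Eftud2-/- embryos at E9.5. Eftud2+/- embryos, called heterozygous below, were the study's controls and by genotype already carry 1 mutant allele, so no group is wild type. The labels name no Cre driver, no number of embryos per library and no somite counts, and they give the sample as neural crest cells, as cranial nerve ganglia and as stored heads. No source says that replicates came from separate embryos, so the tests measure the spread between these libraries, which may be technical.

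A ribosome holds 1 copy of most of its proteins, and the large subunit also carries a stalk built on Rplp0 with pairs of Rplp1 and Rplp2. The mRNAs of these proteins begin with a run of C and U bases, the 5′ terminal oligopyrimidine tract, through which the mTOR pathway sets their translation. When ribosome assembly is disturbed, free Rpl5 and Rpl11 in a particle with 5S RNA bind Mdm2, the ubiquitin ligase that keeps p53 low. Loss of 1 copy of certain ribosomal protein genes causes Diamond-Blackfan anaemia in people, often with craniofacial defects, and mouse mutants of Rpl38 and Rpl24 have skeletal defects.

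Between 13914543 and 31172708 counts were assigned per library. The Rn45s row, the precursor of ribosomal RNA, made up 37.4% of replicate 1 of the heterozygous E9.0 group, between 6.05% and 16.2% of the other E9.0 libraries and between 4.40% and 5.90% of the E9.5 libraries. Levels are therefore given as CPM, the counts relative to the library size after TMM scaling, which estimates 1 factor per library from the bulk of the genes and was 0.664 in that library and between 0.924 and 1.11 in the others. Eftud2 itself stood at 302, 275 and 279 CPM in the heterozygous and at 236, 234 and 232 CPM in the homozygous E9.0 libraries, and its log2 fold change was -0.29 ± 0.054 (SE, adjusted p = 0.0193). At E9.5 it stood at 248, 255 and 264 and at 226, 221 and 226 CPM, with -0.19 ± 0.053 (SE, adjusted p = 0.0906). Every homozygous library lay below every heterozygous library of its stage. Summed markers of neural crest (6 genes) reached between 142.0 and 278 CPM, of cranial ganglion neurons (8 genes) between 60.6 and 180 CPM, and of neural progenitors (4 genes) between 555 and 709 CPM, so that markers of the labelled cell types and of neural progenitors were all present. Of the 6 crest markers Ets1 was the highest, at 51.9 to 148 CPM, and Foxd3 the lowest, at 0.30 to 10.6 CPM. Fewer cells of a type and less RNA per cell cannot be told apart in such bulk samples.

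The 76 members together took 4.04 ± 0.81% (SD, n = 3) of all counts in heterozygous E9.0, 5.06 ± 0.36% in homozygous E9.0, 5.14 ± 0.16% in heterozygous E9.5 and 4.77 ± 0.24% in homozygous E9.5 libraries. The lowest value, 3.12%, belonged to the library with the most Rn45s. With the Rn45s row left out of the totals the means were 5.14%, 5.74%, 5.42% and 5.04%, so that the homozygous group was then the highest at E9.0 and the lowest at E9.5.

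Per length of transcript, the median member stood at 766 CPM per kb, with quartiles of 553 and 1021. The highest were Rps2, a protein near the mRNA entry channel, at 1909.5 CPM per kb, the stalk protein Rplp1 at 1831, and Rpl41, the shortest ribosomal protein, at 1806. Group means of Rps2 overlapped those of Rplp1 within their SD, and the order of the leading members is not firm. At the other end, 4 members stood far below the rest of the list. Rpl26, which lines the peptide exit tunnel and is reported to raise p53 translation, had 1 count over all 12 libraries, and 3 counts, the limit that a count of 0 allows, would be between 0.0880 and 0.225 CPM. Rpl30 stood at 3.90 CPM per kb, Rps27 at 7.84 and Rpl34 at 14.2, whereas the next member, Rps20, stood at 151. These levels use the shortest principal transcript of each gene. With the longest one Rpl41 stood at 1356 CPM per kb, and 2 further members fell below Rps20, Rpl29 from 188 to 149.9 and another from 787 to 97.2, so that the order depends on the transcript chosen. Rpl26, Rpl30, Rps27 and Rpl34 encode proteins of the ribosome, and their rows hold far fewer counts than those of the other members.

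Many ribosomal protein genes have processed pseudogenes or near-identical copies, and a read that matches several places may not be counted for the parent gene. How such reads were treated is not given in the sources used here. In the GENCODE M21 transcripts, 75 of 76 members shared at least 1 stretch of 50 bases with another gene, and 46 shared more of theirs than not. The shared portion was 98.6% for Rps27, 71.3% for Rpl26, 50.6% for Rpl34 and 47.8% for Rpl30, against 55.5% for the median member and 86.7% for Rpl9. Across the 75 tested members the level per kb and this portion had a Spearman correlation of 0.102. The part of shared reads in their levels was not tested. For Rps27, 292 of its 296 stretches recur in the annotated copy Rps27rt, a row with 0 counts in all 12 libraries. The 2 starts are printed to show that the copies are alike from the start onward and unlike before it, 15 bases before and 30 bases from the annotated start (RefSeq, GRCm38.p6), with the 29 bases in common in capitals; Rps27 lies at chr3:90213619-90213663 and Rps27rt at chr9:114982710-114982754, both on the minus strand.
Rps27: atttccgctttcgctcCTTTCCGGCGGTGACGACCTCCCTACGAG
Rps27rt: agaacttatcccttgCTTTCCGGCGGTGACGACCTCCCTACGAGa
The capitals begin at the first transcribed base of Rps27rt and at the second of Rps27.

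**Figure D1:**
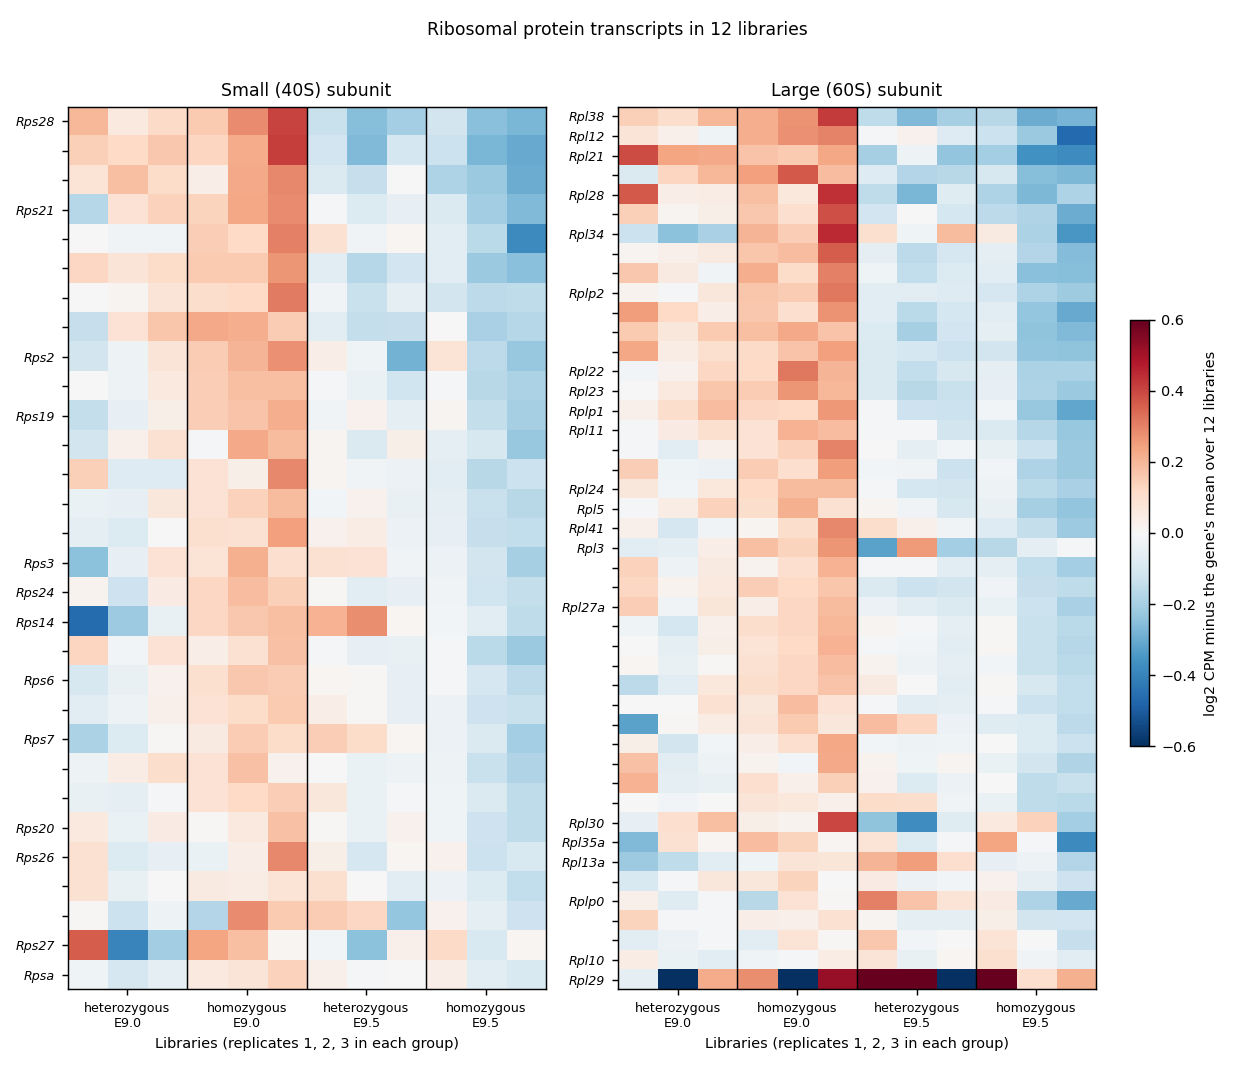
Log2 CPM of the 75 tested members (rows; small subunit left, large subunit right; each ordered from the largest fall between the stages in homozygous embryos at the top, with some rows named) in the 12 libraries (columns), as the difference from each gene's mean over the 12; colours end at 0.6 in either direction. Most rows are red in the 3 homozygous E9.0 libraries and blue in homozygous E9.5 replicates 2 and 3, and Rpl29 differs between replicates of a group.

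The members moved largely together from library to library, as the map of log2 CPM by library shows. The median over the 75 members of the log2 difference from the 12-library mean was 0.0036, -0.022 and 0.044 for heterozygous and 0.10, 0.13 and 0.19 for homozygous embryos at E9.0. It was -0.0080, -0.038 and -0.054 in the heterozygous E9.5 and -0.036, -0.14 and -0.19 in the homozygous E9.5 libraries. The genotypes stood apart at E9.0, and at E9.5 homozygous replicate 1 lay inside the heterozygous range. In that replicate 74 of 75 members lay above their group's mean, and in replicate 3 of the same group only 2 of 75 did. Members of 1 library are therefore not separate measurements of a condition, and counts of members are to be read against the share of all 14810 tested genes that met the same criterion. The median SD of log2 CPM over the 12 libraries was 0.13 for members and 0.19 for all tested genes.

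**Figure D2:**
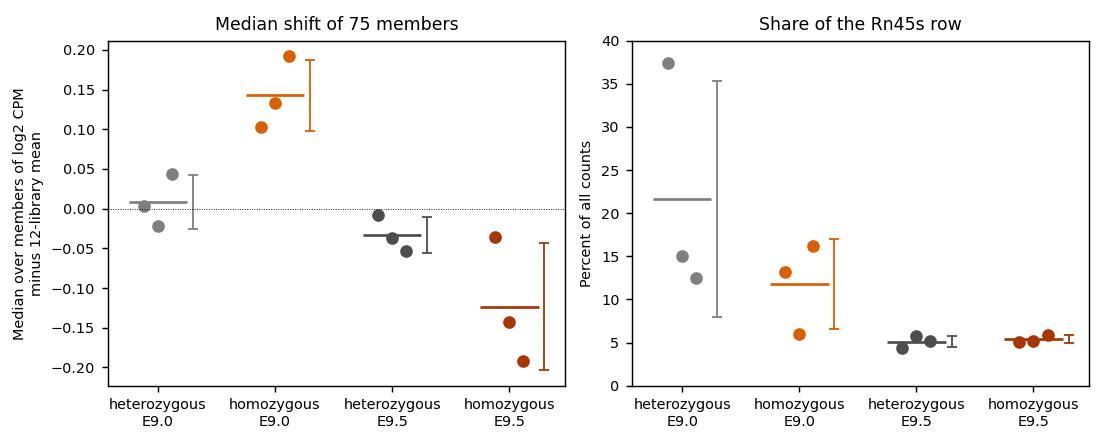
Left, median over 75 members of log2 CPM minus the gene's mean over 12 libraries, and right, the share of the Rn45s row in percent of all counts, for each library (points), with the group mean (line) and SD of 3 (bar). The member shift is highest in the 3 homozygous E9.0 libraries (0.10 to 0.19), and Rn45s is highest in heterozygous E9.0 replicate 1 (37.4%).

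Steadiest of all was Rpl10, the protein that completes the 60S subunit near its catalytic centre, which ranged from 573 to 639.6 CPM. The most variable member was Rpl29, a small basic 60S protein (chr9:106429454-106431568, plus strand, GRCm38), at 89.7, 36.2 and 109 CPM in heterozygous E9.0, 113, 36.6 and 134 in homozygous E9.0, 188, 180.0 and 30.8 in heterozygous E9.5 and 193, 99.99 and 108 in homozygous E9.5 libraries. Its lowest library within a group lay far below the highest in 3 of the 4 groups, and no group stood apart from another. Its SD of log2 CPM was 0.94, against 0.27 for the next member, Rpl21.

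At E9.0, none of the 75 members passed the test of homozygous against heterozygous embryos, in which 0.587% of all genes passed. Even so, 73 of 75 had a fitted value above 0, against 49.0% of all genes, and the median log2 fold change was 0.14, against -0.0043 for all genes. Unadjusted p was under 0.05 for 35 members, against 13.3% of all genes. In 32 members every homozygous library lay above every heterozygous library, against 9.07% of all genes, and in 0 members every one lay below, against 8.2%. The shift was small and was seen in both subunits, with medians of 0.15 for the small and 0.13 for the large. In the same libraries summed neural crest markers lay between 263.5 and 278 CPM in heterozygous and between 219 and 243 CPM in homozygous embryos, ganglion neuron markers between 64.3 and 68.3 CPM and between 60.6 and 63.6 CPM, and endothelial markers (6 genes) between 199 and 219.7 CPM and between 241 and 249.98 CPM. Of the 6 crest genes 1 was called, lower in homozygous embryos, where 0.587% of all genes passed. The part of these markers in the members' shift was not tested.

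Rps14, a protein of the 40S platform, had the smallest adjusted p at E9.0. It stood at 682, 806 and 908 CPM in the heterozygous and at 1022, 1048 and 1064 CPM in the homozygous libraries, a log2 fold change of 0.39 ± 0.088 (SE, adjusted p = 0.0643). The groups did not overlap, and the heterozygous libraries were spread more widely than the homozygous ones. Of the fits that each left out 1 library, only the one without heterozygous E9.0 replicate 3 called Rps14. That replicate was the highest of its group, and the fit gave 0.49 and an adjusted p of 0.0145. Rps19, the gene mutated most often in Diamond-Blackfan anaemia, stood at 438, 466 and 494 and at 535, 544 and 561 CPM, with 0.23 ± 0.063 (SE, adjusted p = 0.128). These were the members that DESeq2 called on the same counts, with adjusted p-values of 0.00428 for Rps14 and 0.0275 for Rps19 (2 of 75, where DESeq2 called 1.46% of all genes). Rps14 overlaps Ndst1 on the opposite strand, 1 of 21 members with such an overlap, and since the strand setting of the counting is not given, reads of the overlapping genes cannot be told apart.

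The proteins that bind Mdm2 were looked at because Mdm2 itself passed the test at E9.0, at 52.6, 52.7 and 55.5 CPM in heterozygous and 70.6, 71.2 and 73.9 CPM in homozygous libraries, with 0.42 ± 0.064 (SE, adjusted p = 0.00321). Of 13 reported Mdm2 binders 12 were tested, and 0 passed, where 0.587% of all genes did, so a count of 0 in a list of this size is near the background. The 2 members of the 5S particle overlapped between genotypes. Rpl5 stood at 818, 852 and 908 and at 889, 958 and 879 CPM, a log2 fold change of 0.08 ± 0.064 (SE, adjusted p = 0.617). Rpl11 stood at 622, 644 and 668 and at 662, 721 and 709 CPM, with 0.11 ± 0.058 (SE, adjusted p = 0.411). Rps7, another reported binder, reached 524, 564 and 599 and 619.8, 664 and 644 CPM without overlap, with 0.19 ± 0.064 (SE, adjusted p = 0.216). Rpl23 had 0.13 ± 0.061 (SE, adjusted p = 0.381), Rps3 0.20 ± 0.075 (SE, adjusted p = 0.277) and Rps27a, made as a fusion with ubiquitin, 0.15 ± 0.073 (SE, adjusted p = 0.375). Rps27l, the near-copy of Rps27 that p53 is known to induce and that lies outside the symbol rule, stood at 94.9, 116 and 126 and at 129.6, 144 and 134 CPM, with 0.27 ± 0.087 (SE, adjusted p = 0.196).

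Of the Diamond-Blackfan genes 19 of 20 were tested, and 0 passed at E9.0 (0.587% of all genes), with a median of 0.16. Rps24 had 0.17 ± 0.058 (SE, adjusted p = 0.232), Rps26 0.11 ± 0.079 (SE, adjusted p = 0.552) and Rpl35a 0.16 ± 0.13 (SE, adjusted p = 0.647). The 6 members with a mouse mutant of altered shape or pigment also gave 0 calls (0.587% of all genes), with a median of 0.14. Rpl38, whose loss is reported to alter the vertebral pattern and the translation of Hox mRNAs, stood at 249, 243 and 259.9 CPM in heterozygous and at 263, 273 and 302 CPM in homozygous libraries, apart but with 0.15 ± 0.063 (SE, adjusted p = 0.302). Rpl24, mutated in Belly spot and tail mice, had 0.13 ± 0.058 (SE, adjusted p = 0.353), Rpl27a 0.054 ± 0.061 (SE, adjusted p = 0.754) and Rps20 0.059 ± 0.059 (SE, adjusted p = 0.705). The stalk base Rplp0 stood at 1605, 1494 and 1564 and at 1402, 1668 and 1576 CPM, with -0.0054 ± 0.086 (SE, adjusted p = 0.986). Its groups overlapped, its sign turned under other settings (0.059 without homozygous replicate 1), and its difference from the other members was not tested.

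At E9.5 the fitted values lay on the other side. One member passed, 1 of 75, where 1.89% of all genes passed, so the count of calls is near the background. A fitted value below 0 was found for 71 of 75 members, against 50.8% of all genes, with a median of -0.082 against -0.0026. The median was -0.12 without homozygous replicate 1 and -0.044 without homozygous replicate 3, so its size rests on single libraries. In 18 members every homozygous library lay below every heterozygous library (9.47% of all genes), and in 0 members every one lay above (11.4%). Unadjusted p was under 0.05 for 13 members, where 13.4% of all genes reached it, so this count too is near the background. At this stage endothelial markers lay between 137 and 195 CPM in heterozygous and between 256 and 282 CPM in homozygous libraries, ganglion neuron markers between 156 and 180 CPM and between 131 and 135 CPM. Summed neural crest markers overlapped, but 4 of the 6 genes were called lower in homozygous embryos, with a median log2 fold change of -0.90 over the 6. Their part in the members' values was not tested.

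The called member was Rpl13a, a 60S protein that, phosphorylated, leaves the ribosome to silence interferon-induced mRNAs (chr7:45125558-45128761, minus strand, GRCm38). It stood at 1343, 1385 and 1251 CPM in heterozygous and at 1127, 1139 and 1031 CPM in homozygous E9.5 libraries, a log2 fold change of -0.27 ± 0.062 (SE, adjusted p = 0.0333). The groups did not overlap, and an exact two-sided permutation test gave p = 0.1, the smallest that 3 against 3 allows. The call held in 1 of the 6 fits that each left out 1 of these libraries, with the adjusted p reaching 0.159. It was also lost without heterozygous E9.0 replicate 2, with the replicate number as a block, with total counts only, without robust dispersions and against a 1.2-fold change. Its introns hold small nucleolar RNA genes on the same strand, and 57.4% of its 50-base stretches are shared with other genes.

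Rplp0 had the lowest fitted value of the members at E9.5. It stood at 1938, 1767 and 1663 and at 1627, 1381 and 1275 CPM, with -0.33 ± 0.086 (SE, adjusted p = 0.0717). Rps14 stood at 1082, 1137 and 944 and at 928, 895 and 843 CPM, with -0.25 ± 0.088 (SE, adjusted p = 0.21), so its homozygous libraries lay above the heterozygous ones at E9.0 and below them at E9.5. Rpl12, which sits at the base of the stalk, stood at 739, 758 and 707 and at 682, 637 and 539.8 CPM, with -0.25 ± 0.071 (SE, adjusted p = 0.102). DESeq2 called Rpl13a, Rplp0, Rpl12 and Rpl17, 4 of 75, against 3.09% of all genes. Without homozygous E9.5 replicate 1, the library whose members lay inside the heterozygous range, the main test called Rplp0 (-0.43, adjusted p = 0.0203) and Rpl12 (-0.32, adjusted p = 0.0438) and no longer Rpl13a.

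Among the reported Mdm2 binders 0 of 12 passed at E9.5, with a median of -0.099, where 1.89% of all genes passed. Rpl5 had -0.12 ± 0.064 (SE, adjusted p = 0.433), Rpl11 -0.12 ± 0.058 (SE, adjusted p = 0.409) and Rps7 -0.20 ± 0.064 (SE, adjusted p = 0.156). The Diamond-Blackfan genes gave 0 of 19 and the mouse mutants 0 of 6, so that in each of these lists the count is near the background. Rps19 had -0.09 ± 0.063 (SE, adjusted p = 0.617) and Rpl38 -0.042 ± 0.063 (SE, adjusted p = 0.864). Rps6, the 40S protein phosphorylated by S6 kinase, had -0.079 ± 0.055 (SE, adjusted p = 0.615), and Rpsa, also known as a laminin receptor, -0.042 ± 0.052 (SE, adjusted p = 0.826). Averaged over the stages, 0 members passed (2.96% of all genes), 2 had an unadjusted p under 0.05 (16.9% of all genes), and DESeq2 called 0 (4.47% of all genes). The median was 0.022, and it lay between -0.00041 without homozygous E9.5 replicate 1 and 0.041 without homozygous E9.5 replicate 3.

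**Figure D3:**
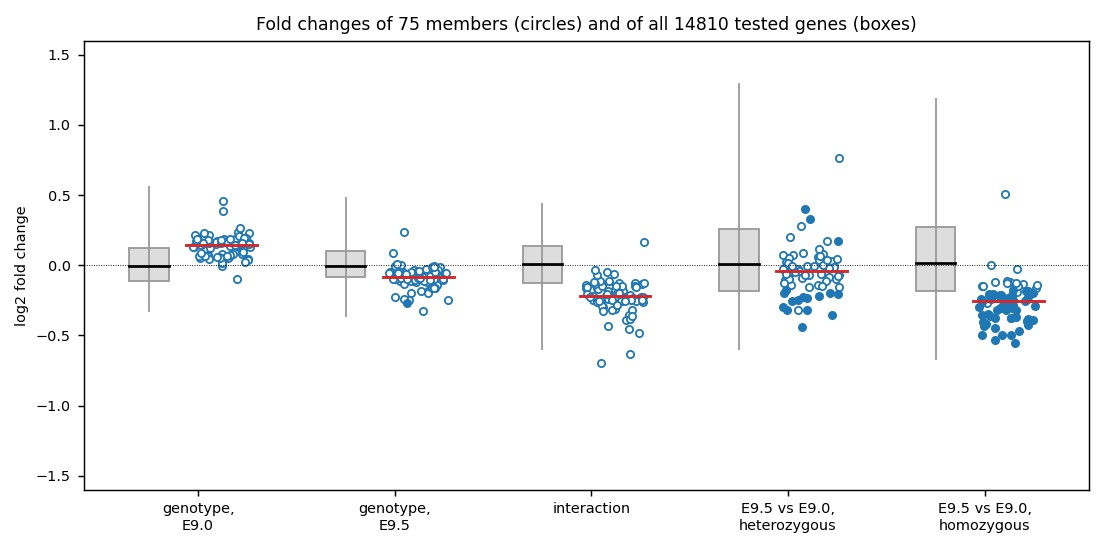
Log2 fold changes of the 75 members (circles, filled where the adjusted p is under 0.05; red line, their median) beside all 14810 tested genes (box, quartiles and median; grey line, 5th to 95th percentile) in 5 comparisons; genotype is homozygous against heterozygous. The members' median is 0.14 at E9.0 and -0.082 at E9.5, and 56 of them are filled in the comparison of stages in homozygous embryos.

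The difference between the 2 genotype effects was tested as an interaction, the effect at E9.5 minus that at E9.0. No member passed (0.0675% of all genes passed), 42 had an unadjusted p under 0.05 (8.6% of all genes), and 74 of 75 were below 0, against 47.9% of all genes. The median was -0.22, against 0.0094 for all genes. A fitted value above 0 at E9.0 together with one below 0 at E9.5 was found for 69 members, or 92.0%, and for 21.3% of all genes. In 10 members every homozygous library lay above the heterozygous ones at E9.0 and below them at E9.5, as in 0.506% of all genes (75 of 14810), among them Rps7, Rps9, Rps10, Rps14, Rpl9, Rpl12, Rpl13a, Rpl17 and Rplp2. Rpl13a had the smallest adjusted p, with -0.46 ± 0.087 (SE, adjusted p = 0.0891), and Rps14 had -0.64 ± 0.12 (SE, adjusted p = 0.116). DESeq2 called 7 of 75, against 0.568% of all genes, among them Rps7, Rps10, Rps14, Rpl12 and Rpl13a. Of the fits that each left out 1 library, only the one without heterozygous E9.0 replicate 3 called a member. This was Rps14, at -0.74 and an adjusted p of 0.0197.

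These shifts were compared with genes that resemble the members in being short and abundant. Members with up to 729 bases of transcript, the shorter 38, had a median of 0.16 at E9.0, and the longer 37 had 0.14. The 42 other genes of at most that length and at least 200 CPM had medians of 0.15 at E9.0, -0.077 at E9.5 and -0.25 for the interaction, which are close to the members' own. The 769 other genes of at least 200 CPM, whatever their length, had medians of -0.0080, -0.0018 and 0.018. With an offset for GC content and length the members' medians were 0.080 at E9.0, -0.050 at E9.5 and -0.13 for the interaction. The genotype shifts are thus not shown to be particular to ribosomal protein genes, and the part of transcript length or RNA quality in them was not tested.

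Between E9.0 and E9.5 the heterozygous embryos showed no single direction. Fitted values were below 0 for 50 members and above 0 for 25, and below 0 for 7232 of 14810 tested genes. In this comparison 17 of 75 members passed, or 22.7%, where 35.2% of all genes passed, and the median was -0.043, against 0.0082 for all genes. Without heterozygous E9.0 replicate 1 the median was -0.024. Of the 17, 14 fell, where 16.0% of all genes fell, and 3 rose, where 19.2% rose. Rpl21, a 60S protein, stood at 693, 624 and 619 CPM at E9.0 and at 460.1, 517 and 448 CPM at E9.5, a log2 fold change of -0.44 ± 0.068 (SE, adjusted p = 0.000128). Rpl38 fell from 251 ± 8.35 to 196 ± 7.58 CPM (SD, n = 3), with -0.35 ± 0.063 (SE, adjusted p = 0.000399). Rps28, a small 40S protein at the mRNA exit, fell from 366 ± 18.1 to 293 ± 12.6 CPM, with -0.32 ± 0.069 (SE, adjusted p = 0.00187). The 3 that rose were Rps14 with 0.40 ± 0.088 (SE, adjusted p = 0.00242), Rpl13a with 0.33 ± 0.062 (SE, adjusted p = 0.000621) and Rps7 with 0.18 ± 0.064 (SE, adjusted p = 0.0427). Among the 14 that fell, 7 kept their call in each of the 6 fits without 1 library, as did Rps14 and Rpl13a among the 3 that rose, whereas Rps7 kept it in 2.

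In homozygous embryos the calls between the stages ran one way. Of 75 members 56 fell and 0 rose, 74.7%, where 15.8% of all genes fell and 19.6% rose. A fitted value below 0 was found for 73 members, and for 7135 of 14810 tested genes. The 2 above 0 were Rpl29, with 0.51 ± 0.75 (SE, adjusted p = 0.639), and Rpl10. The median log2 fold change was -0.26, against 0.015 for all genes, and in 64 members every E9.5 library lay below every E9.0 library (22.1% of all genes). Both subunits took part, with 24 of 30 members of the small and 32 of 45 of the large subunit. In each of the 6 fits without 1 library 45 of the 56 calls were kept.

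Rpl38 fell most, from 263, 273 and 302 CPM at E9.0 to 201, 184 and 186 CPM at E9.5, with -0.55 ± 0.063 (SE, adjusted p = 6.77e-06). Rpl12 fell from 867, 902 and 916 to 682, 637 and 539.8 CPM, with -0.53 ± 0.071 (SE, adjusted p = 3.34e-05), whereas in heterozygous embryos it had -0.047 ± 0.071 (SE, adjusted p = 0.645). Rpl21 fell from 596, 589.8 and 620.1 to 459, 411 and 407 CPM, with -0.50 ± 0.069 (SE, adjusted p = 3.95e-05). Against a change of 1.2-fold, 10 members fell, where 4.69% of all genes fell.

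The counts by role below stand beside 74.7% of all members and 15.8% of all genes that fell, and no role is shown to differ from the other members. Both members of the 5S particle fell, Rpl5 with -0.29 ± 0.064 (SE, adjusted p = 0.00195) and Rpl11 with -0.32 ± 0.058 (SE, adjusted p = 0.000443). Of the 12 Mdm2 binders 9 fell, Rpl23 with -0.36 ± 0.061 (SE, adjusted p = 0.000287) and Rps3 with -0.25 ± 0.075 (SE, adjusted p = 0.0175) among them, while Rps26 had -0.17 ± 0.079 (SE, adjusted p = 0.117). Of the Diamond-Blackfan genes 14 of 19 fell, such as Rps19 with -0.28 ± 0.063 (SE, adjusted p = 0.0023) and Rps24 with -0.25 ± 0.058 (SE, adjusted p = 0.00358). All 6 mouse mutant genes fell, including Rpl24 with -0.29 ± 0.058 (SE, adjusted p = 0.000898). In the stalk Rplp1 fell with -0.35 ± 0.073 (SE, adjusted p = 0.00156) and Rplp2 with -0.38 ± 0.057 (SE, adjusted p = 8.62e-05), and Rplp0 had -0.12 ± 0.086 (SE, adjusted p = 0.312). The exit tunnel proteins gave 4 of 5. Among the members that did not pass were Rpl10 with 0.002 ± 0.058 (SE, adjusted p = 0.983), Rpsa with -0.13 ± 0.052 (SE, adjusted p = 0.0661), Rpl3, which shapes the peptidyl transferase centre, with -0.27 ± 0.11 (SE, adjusted p = 0.0806), and Rpl13a with -0.13 ± 0.062 (SE, adjusted p = 0.122). Rpl22, an RNA-binding protein without which mice survive, fell with -0.36 ± 0.063 (SE, adjusted p = 0.000331).

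**Figure D4:**
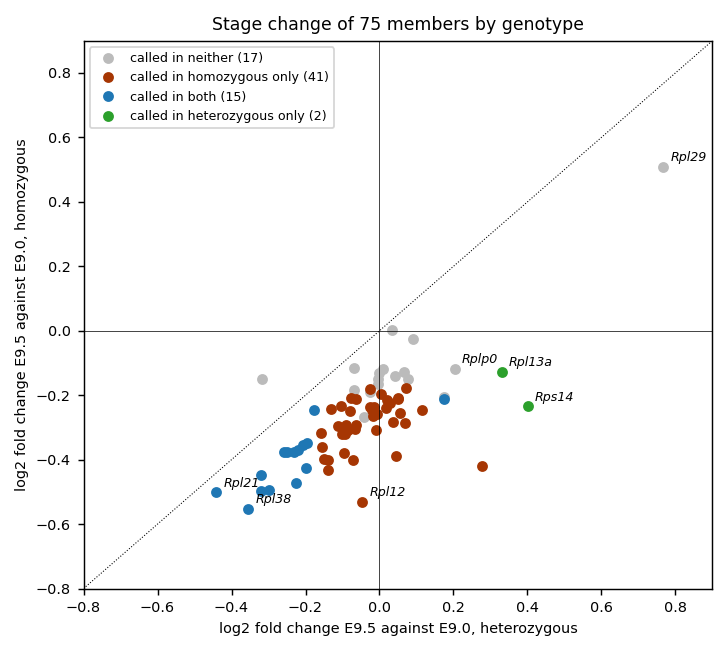
Log2 fold change of E9.5 against E9.0 for each of the 75 members in heterozygous (x) and homozygous (y) embryos, coloured by which of the 2 tests called it; the dotted line marks equal change. Of the members 41 were called in homozygous embryos only, 15 in both, 2 in heterozygous embryos only and 17 in neither, and 74 of 75 lie below the dotted line.

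Across the genotypes, 41 members passed in homozygous embryos only, 15 in both, 2 in heterozygous embryos only and 17 in neither. Of all tested genes 11.0% passed in homozygous embryos only, 24.4% in both, 10.8% in heterozygous embryos only and 53.8% in neither. The difference of the stage changes is the interaction given above, in which no member passed, so a difference between the genotypes is not shown for any single member by the main test. Of the 15, 14 fell in both genotypes, and Rps7 rose in heterozygous and fell in homozygous embryos. The stage comparison depends on what is held constant. Scaled by total counts alone, the median gene stood at 0.38 in heterozygous and 0.18 in homozygous embryos, the members' medians were 0.33 and -0.084, and 32 members (all higher) and 0 members were called, where 45.4% of all genes were higher in the first and 22.5% were called in the second; Rpl38 and Rps28 then stood at 0.016 and 0.059 in heterozygous embryos. Relative to the median gene, the members' median under 12 scalings, filters and tools, leaving aside the offset for GC content and length, was between -0.055 and -0.014 in heterozygous and between -0.27 and -0.19 in homozygous embryos. With that offset it was -0.14 in heterozygous embryos. Summed erythroid markers (6 genes) lay between 534 and 1163 CPM in the E9.0 and between 2777 and 5179 CPM in the E9.5 libraries, and heart muscle markers (5 genes) between 27.6 and 229.7 CPM and between 1314 and 2099 CPM; the adult globin Hba-a1 was at or near 0. Neural crest markers lay between 219 and 278 CPM in the E9.0 and between 142.0 and 179 CPM in the E9.5 libraries, and ganglion neuron markers between 60.6 and 68.3 CPM and between 131 and 180 CPM, so that neither sum overlapped between the stages. Their part in the members' fall was not tested.

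For the change between the stages, the 42 other short and abundant genes had a median of 0.19 in heterozygous and -0.093 in homozygous embryos, beside -0.043 and -0.26 for the members. The 769 other genes of at least 200 CPM had -0.095 and -0.093. With the offset for GC content and length the members' medians were -0.13 and -0.26, and the count of calls in heterozygous embryos was 34 in place of 17, where 39.5% of all genes passed.

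**Figure D5:**
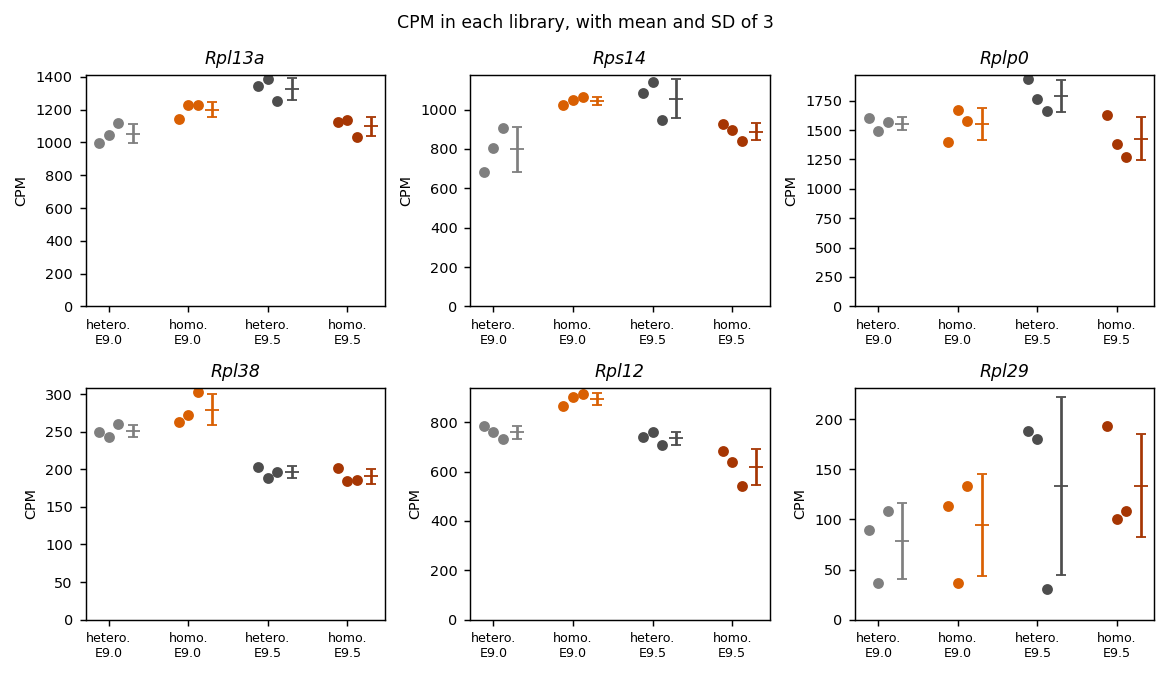
CPM (from 0) of 6 members in each library (points, replicates 1, 2 and 3 from left to right), with the mean and SD of 3 beside them. Rps14 and Rpl12 lie higher in homozygous than heterozygous libraries at E9.0 and lower at E9.5, Rpl38 is lower at E9.5 in both genotypes, and Rpl29 varies within groups.

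Of 12 genes of ribosomal proteins or their near-copies outside the symbol rule 8 were tested, 1 of which is annotated as a transcribed processed pseudogene. By genotype 0 passed at either stage (0.587% and then 1.89% of all genes did), and medians were 0.15 at E9.0 and -0.034 at E9.5. Between the stages in homozygous embryos 4 of the 8 fell (15.8% of all genes), with a median of -0.13, and the others ran from -0.047 for Rps27l to 0.14 for Rps3a1. Fau, which encodes the 40S protein eS30 fused to a ubiquitin-like domain, had 0.20 ± 0.067 (SE, adjusted p = 0.219) at E9.0 and -0.29 ± 0.067 (SE, adjusted p = 0.00293) between the stages in homozygous embryos. Rps3a1 had the lowest fitted value of the 8 at E9.0, with -0.36 ± 0.30 (SE, adjusted p = 0.653), and its libraries ranged from 347 to 821 CPM. Of 19 other mRNAs with a pyrimidine tract, such as translation factors, 0 passed by genotype at either stage, against the same shares of all genes, and between the stages 12 fell in homozygous (15.8% of all genes) and 8 in heterozygous embryos (16.0%). Their medians were 0.072 at E9.0, 0.020 at E9.5, -0.13 between the stages in heterozygous and -0.21 in homozygous embryos. Of 77 mitochondrial ribosomal protein genes, which serve a separate ribosome, 0 passed by genotype at E9.0 (0.587% of all genes) and 1 at E9.5 (1.89%). Between the stages in homozygous embryos 7 of them fell (15.8% of all genes) and 1 rose (19.6%), with a median of -0.026. In heterozygous embryos 2 fell (16.0%) and 11 rose (19.2%), with a median of 0.038.

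Start windows of 300 bases (250 before and 50 from the start; RefSeq, GRCm38.p6) were found for 56 of the 76 members, 66 windows in all. A start inside a run of at least 6 C or T bases was found in 19 windows (28.8%), against 7.25% of 32851 windows of all genes. Bases on both sides of the start count toward the run. Those with the largest falls between the stages in homozygous embryos are printed to show runs that span the start. A pyrimidine tract of the mRNA would begin at that base. Each line gives 30 bases before and 15 from the start, with the run in capitals. In this order the windows lie at chr11:114668550-114668594, chr7:4792935-4792979, chr3:130730323-130730367 (minus strand), chr2:180257349-180257393 and chr7:141447621-141447665.
Rpl38: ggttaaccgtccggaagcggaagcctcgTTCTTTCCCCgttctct
Rpl28: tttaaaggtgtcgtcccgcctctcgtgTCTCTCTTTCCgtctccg
Rpl34: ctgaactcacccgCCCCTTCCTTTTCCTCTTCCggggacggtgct
Rps21: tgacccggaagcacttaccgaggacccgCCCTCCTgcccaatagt
Rplp2: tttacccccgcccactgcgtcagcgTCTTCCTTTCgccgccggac
The runs span 10, 11, 20, 7 and 10 bases on both sides of the start together. They are not lengths of a tract in the mRNA, and in Rpl34 most of the run lies before the start. Among the 19 members with such a start the stage change in homozygous embryos ran from -0.55 for Rpl38 to -0.026 for Rpl15, so the run is found with large and with small changes alike. The core of GABP sites, CGGAAG on either strand, was in 41 of 66 member windows (62.1%) and 16.9% of all windows. It can be read in the Rpl38 and Rps21 lines, and as its reverse complement, CTTCCG, in the Rpl34 line. GGGCGG, bound by Sp1, was in 60.6% and 35.7%, AAGATGG, the YY1 core, in 16.7% and 6.34%, and TATAAA in 9.09% and 13.6%. A match of letters is a description of these windows and no evidence of binding.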

How the data were processed

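RNA of 12 libraries was measured, and the authors deposited 1 table of raw counts per gene symbol, whole numbers without normalization. Per the submitters' processing notes, cutadapt, STAR, featureCounts and MultiQC were used with build mm10; versions, annotation, strand setting and treatment of reads with several matches are not given in the sources used here. No column lacked a sample (0). The counts were tested with edgeR 4.0.16 in R 4.3.3 (filterByExpr by group, TMM, quasi-likelihood F test with robust dispersions, 1 mean per group over all 12 libraries, contrasts). The p-values were two-sided and adjusted with the Benjamini-Hochberg method over 14810 genes, with a threshold of 0.05. The method was also run on simulated data, and the outcome is not reported here. A standard error is the log2 fold change over the root of its F statistic. CPM are relative to TMM-scaled totals, and CPM per kb use the shortest principal transcript in GENCODE M21 (GRCm38). Symbols were matched directly for 23376 rows and by a synonym for 686, and 359 were not matched. The limit of 3 counts covers counting error only. The members, gene lists and comparisons were chosen with earlier results of these data known. Members are named if called by genotype, among the 3 largest rises or falls called in a stage comparison, highest, lowest, steadiest or most variable in level, or listed by role; Rps9, Rps10, Rpl9, Rpl15, Rpl17, Rpl28, Rpl34 and Rps21 were named after their values were seen. A few members chosen this way are not reported here. Other scalings, filters, tools (DESeq2 1.42.0, limma 3.58.1), a replicate block, a GC and length offset (mgcv 1.9.3) and leaving out each library were tried. Replicate numbers were checked for pairing, which the check did not decide, and the main test used no block.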

Additional observations from a re-analysis of the deposited data

How the results depend on the processing

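DESeq2 called 2 members by genotype at E9.0, 4 at E9.5 and 7 in the interaction, against 0, 1 and 0. At E9.5 the count was 2 with no filter, 2 with the GC and length offset and the replicate block together, and 0 with total counts only, without robust dispersions, at an adjusted p under 0.01 and against a 1.2-fold change. Upper-quartile factors gave 1 call at E9.0 (Rps14), and the GC and length offset 1 in the average over stages (Rpl21). With the offset the medians were 0.080 at E9.0 and -0.13 for the interaction (0.080 and -0.13 with the block too), and the stage comparison in heterozygous embryos had a median of -0.13 and 34 calls (33 with the block). Total counts only gave medians of 0.34 at E9.0, 0.12 averaged, -0.42 for the interaction, 0.33 and -0.084 for the stages in heterozygous and homozygous embryos, with 32 and 0 calls; totals without Rn45s gave stage medians of 0.056 and -0.19. An adjusted p under 0.01 left 9 calls in heterozygous embryos. A 1.2-fold test left 1 there and 10 in homozygous embryos, where 4.69% of all genes fell. Counts in this section without a share of all genes show only how a setting moves them. They give no result about the members. Shares of counts without Rn45s were 5.14%, 5.74%, 5.42% and 5.04%.

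Rpl38 and Rps28 turned to 0.016 and 0.059 between the stages in heterozygous embryos with total counts only. Rplp0 at E9.0, at -0.0054, turned to 0.0056 with a mean of at least 50 counts, 0.0055 with only the groups compared, 0.20 with total counts only, 0.023 without Rn45s in the totals, 0.022 with upper-quartile factors, and, leaving out 1 library each, lay between -0.063 and 0.059 (0.016 without heterozygous and 0.059 without homozygous replicate 1). Rps27l at E9.5 lay between -0.015 (without homozygous replicate 1) and 0.077 with 1 library left out. The cause was not tested.

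Leaving out each library in turn gave 0 to 1 calls at E9.0, 0 to 2 at E9.5, 0 to 1 in the average (Rpl3, without heterozygous E9.5 replicate 2), 0 to 1 in the interaction, 13 to 15 between the stages in heterozygous and 46 to 58 in homozygous embryos. Medians stayed between 0.10 and 0.17 at E9.0 and between -0.12 and -0.044 at E9.5.

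Same-numbered libraries had correlations of their deviations between -0.17 and 0.11 over 18 pairs, 1 of them over 0.1. Of 12 libraries 2 correlated best with their own number. Within a stage, same-numbered pairs lay between 0.030 and 0.11, and other pairs between -0.20 and 0.17. These ranges overlap, so the check does not decide whether the numbers pair the libraries. With the replicate number as a block 0 members were called by genotype at E9.0 and 0 at E9.5. Between the stages 15 and 57 were called in heterozygous and homozygous embryos, beside 17 and 56 without the block. The share of all genes under the block is not given, so these counts show the effect of the setting alone. Depth limits Rpl26, Rpl30, Rps27 and Rpl34, whose rows hold few counts.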

Other observations

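Rpl29 was lowest, at 30.8 to 36.6 CPM, in 1 library each of 3 groups, namely replicate 2 of either genotype at E9.0 and replicate 3 of the heterozygous E9.5 group. It was highest, at 180.0 to 193.4 CPM, in heterozygous E9.5 replicates 1 and 2 and homozygous E9.5 replicate 1, and the other 6 libraries lay between 89.7 and 133.6 CPM. These libraries were set apart by the measured value itself, so no test is given.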
